A study of Mus musculus with 2 samples.

Results

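The genes described here are 10 that mark innate lymphoid and natural killer (NK) cells: the transcription factors Zbtb16, Nfil3, Tbx21 and Eomes, the signalling adaptors Fcer1g and Tyrobp, and the receptors Klrd1, Klrk1, Klrb1c and Ncr1. They were chosen by name, with earlier results of these data known. Every probe set whose single platform gene is one of them was taken. This gave 12 probe sets for 9 of the 10 genes, out of 18193 genes on the array. The probe set listed for Klrb1c also carries Klrb1b, so no value is given for Klrb1c. RNA came from mouse thymocytes (C57BL/6J) depleted of lineage-marker-positive cells with beads, which are named DN (double-negative) cells in the title of the series. They were measured on 2 Affymetrix arrays, 1 titled TKO and 1 titled DKO. By the series' design text the TKO cells are LckCre(+)Cdkn2a-/-Ring1A-/-Ring1Bfl/fl and the DKO cells LckCre(-)Cdkn2a-/-Ring1A-/-Ring1Bfl/fl, so that both lack Cdkn2a and Ring1A. Lck-Cre is a recombinase expressed in T-lineage cells, and by that text the floxed Ring1B allele is exposed to it in TKO and not in DKO cells. The genotype field of the samples differs and gives TKO as loss of Ring1A, Ring1B and Cdkn2a, and DKO as loss of Ring1A and Ring1B. The labels give no age and no number of animals, and state that the mutant thymocytes were cultured in standard medium.

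NK cells and innate lymphoid cells arise from the same lymphoid progenitors as T cells but use no rearranged antigen receptor. Nfil3 and Zbtb16 act early in their development, and Eomes and Tbx21 drive NK maturation. Activating NK receptors of the lectin-like Klr family and the immunoglobulin-like Ncr1 signal through partner chains such as Tyrobp and Fcer1g, whose phosphorylated tyrosine motifs recruit the kinases Syk and Zap70, while inhibitory Klr receptors carry inhibitory motifs in their own tails that recruit phosphatases. Ring1 (Ring1A) and Rnf2 (Ring1B) provide the ubiquitin ligase activity of Polycomb repressive complex 1, which holds developmental genes silent. Below, transcript levels in immature thymocytes are compared between the TKO-labelled and the DKO-labelled array. By the design text the labels differ in Lck-Cre, and by the genotype field they differ in the loss of Cdkn2a.

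With 1 array per label there is no spread between animals or cultures, no p-value was computed, and the differences below describe these 2 arrays. The deposited MAS5 signals are linear intensities, scaled to the same trimmed mean of 497 on both arrays. Each array's median signal, 71.8 on the TKO-labelled and 68.8 on the DKO-labelled array, served as a floor to which lower signals were raised, and a gene is called higher or lower at 2-fold or more. The targeted genes did not settle the genotypes. Cdkn2a had 18.5 (under the floor) on the TKO-labelled array and 679 on the DKO-labelled array, while Rnf2 had 4384 on the TKO-labelled and 4149 on the DKO-labelled array. Ring1 had 147 on the TKO-labelled and 133 on the DKO-labelled array. A Cdkn2a value of this size in DKO goes against the loss of Cdkn2a that the design text gives for both labels. The genotype field gives no loss of Cdkn2a in DKO. Rnf2 was likewise far above the floor on both arrays, although the genotype field gives loss of Ring1B for both labels. The Rnf2 and Ring1 signals show no loss on the TKO-labelled relative to the DKO-labelled array. The position of these probe sets relative to the deletions is not known here, so each array is called by its label. Xist, expressed from the inactive X chromosome of female cells, had 16502 on the TKO-labelled and 124 on the DKO-labelled array. The Y-linked Kdm5d had 30.4 on the TKO-labelled and 652 on the DKO-labelled array. Sex thus differed together with the label, and its part in the results cannot be told apart from that of genotype. In RNA from a mixed population, more cells of a type and more RNA per cell cannot be told apart either.

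Signals of the NK genes were mostly higher on the TKO-labelled array. Of the 9 genes with a probe set, 2 were at least 2-fold higher (Fcer1g and Klrd1), 0 were 2-fold lower and 7 were neither. Among all 11280 genes with a signal above the floor on 1 or both arrays, 3.58% were 2-fold higher or more and 0.532% 2-fold lower or more. The log2 ratio, TKO-labelled minus DKO-labelled, was above 0 for 8 of the 9 genes, against 46.5% of all measured genes, and its median over the 9 was 0.90, against -0.03 over all measured genes. Because the genes were chosen with earlier results of these data known, this comparison only describes them. By probe set, 2 of the 10 measured ones were at least 2-fold higher and 0 lower, against 2.97% and 0.51% of all measured probe sets. The 7 genes that missed the rule included Klrk1, Tyrobp and Eomes, each between 1.87-fold and 1.97-fold higher. The distances of these 3 genes, and of Fcer1g and Klrd1, from 2-fold were each smaller than the robust SD of 1 probe set's log2 ratio, 0.21, estimated from pairs of probe sets of 4794 genes on these same arrays. At 1.5-fold, 5 of the 9 genes were higher, against 8.66% of all genes, and 0 were lower, against 3.27%.

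**Figure D1:**
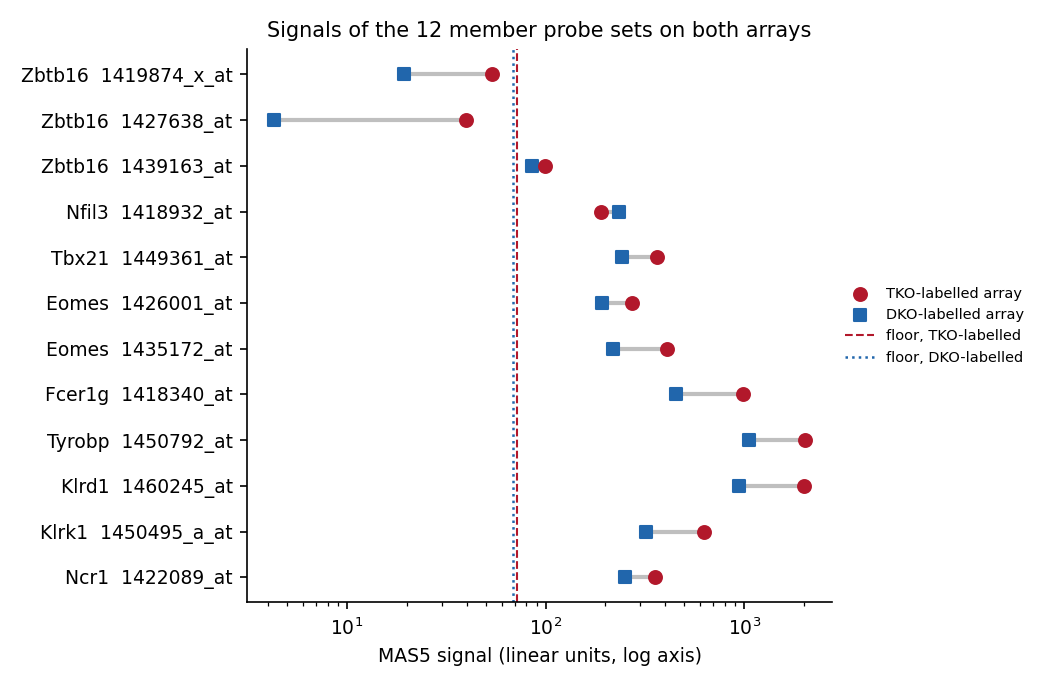
Each row is 1 probe set, with its MAS5 signal on the TKO-labelled array (circle) and the DKO-labelled array (square) on a log axis, and vertical lines at the floor of each array (71.8 on the TKO-labelled and 68.8 on the DKO-labelled array). The circle lies right of the square in every row but that of Nfil3, and 2 of the 3 Zbtb16 probe sets lie left of both floors.

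Fcer1g and Tyrobp, the adaptors, had log2 ratios among the larger ones of the group. Fcer1g, the common Fc receptor gamma chain that also pairs with Ncr1, had a signal of 986 on the TKO-labelled array and 452 on the DKO-labelled array, 2.18-fold higher (log2 ratio 1.13). A log2 ratio at least as large was seen in 2.79% of all measured genes. Tyrobp (DAP12), which pairs with activating Klr receptors and with many myeloid receptors, had 2031 on the TKO-labelled array and 1060 on the DKO-labelled array, 1.92-fold higher (log2 ratio 0.94). Of all measured genes, 4.04% had a log2 ratio at least as large. Both signals of each adaptor were several times the floor, the lowest being Fcer1g on the DKO-labelled array at 6.56 times it. Each adaptor has 1 probe set, so neither value has a second reading.

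Klrd1, Klrk1 and Ncr1, the receptors, all had higher signals on the TKO-labelled array. Klrd1 (CD94), the chain that forms heterodimers with the NKG2 proteins and binds the nonclassical class I molecule Qa-1, had 1998 on the TKO-labelled array and 944 on the DKO-labelled array, 2.12-fold higher (log2 ratio 1.08). Klrk1 (NKG2D), the receptor for stress-induced class I-like ligands, had 627 on the TKO-labelled array and 319 on the DKO-labelled array, 1.97-fold higher (log2 ratio 0.98). Ncr1 (NKp46), a receptor largely restricted to NK cells and some other innate lymphoid cells, had 357 on the TKO-labelled array and 251 on the DKO-labelled array, 1.42-fold higher (log2 ratio 0.51). Log2 ratios at least as large were seen in 3.09% of measured genes for Klrd1, 3.79% for Klrk1 and 10.3% for Ncr1. The Klrk1 call depended on the scaling. It passed 2-fold, at a log2 ratio of 1.01, when the median ratio of all genes measured on both arrays was set to 0, while its log2 ratio stood at 0.59 when each array's 75th percentile was the floor.

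Eomes and Tbx21, the paired T-box factors of NK maturation, had higher signals on the TKO-labelled array but neither passed 2-fold. Eomes was read by 2 probe sets. The brighter one had 410 on the TKO-labelled array and 219.6 on the DKO-labelled array, 1.87-fold higher (log2 ratio 0.90), and the dimmer one had 273 on the TKO-labelled array and 193 on the DKO-labelled array, 1.41-fold higher (log2 ratio 0.50). They gave the same direction and differed in size, and the mean over both was a log2 ratio of 0.70. Tbx21 (T-bet) had 362 on the TKO-labelled array and 242 on the DKO-labelled array (log2 ratio 0.58). Of all measured genes, 4.40% had a log2 ratio at least that of the brighter Eomes probe set, and 8.73% at least that of Tbx21.

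Nfil3 and Zbtb16, the early factors, had a negative and a smaller positive ratio. Nfil3 (E4BP4), a basic leucine zipper factor needed for NK progenitors, was the member with a negative log2 ratio: its signal was 190.0 on the TKO-labelled array and 234 on the DKO-labelled array, a log2 ratio of -0.30. Of all measured genes, 14.8% had a log2 ratio as low or lower. Zbtb16 (PLZF), the factor of innate lymphoid precursors and of invariant NKT cells, was near the floor. Its measured probe set had 98.9 on the TKO-labelled array (1.38 times its floor) and 85.5 on the DKO-labelled array (1.24 times its floor; log2 ratio 0.21). The other two probe sets lay below the floor on both arrays, at 53.9 and 39.8 on the TKO-labelled array and at 19.4 and 4.28 on the DKO-labelled array, so they have no ratio. Zbtb16 was therefore hardly above the level at which signals were counted, and 24.0% of measured genes had a log2 ratio at least as large.

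**Figure D2:**
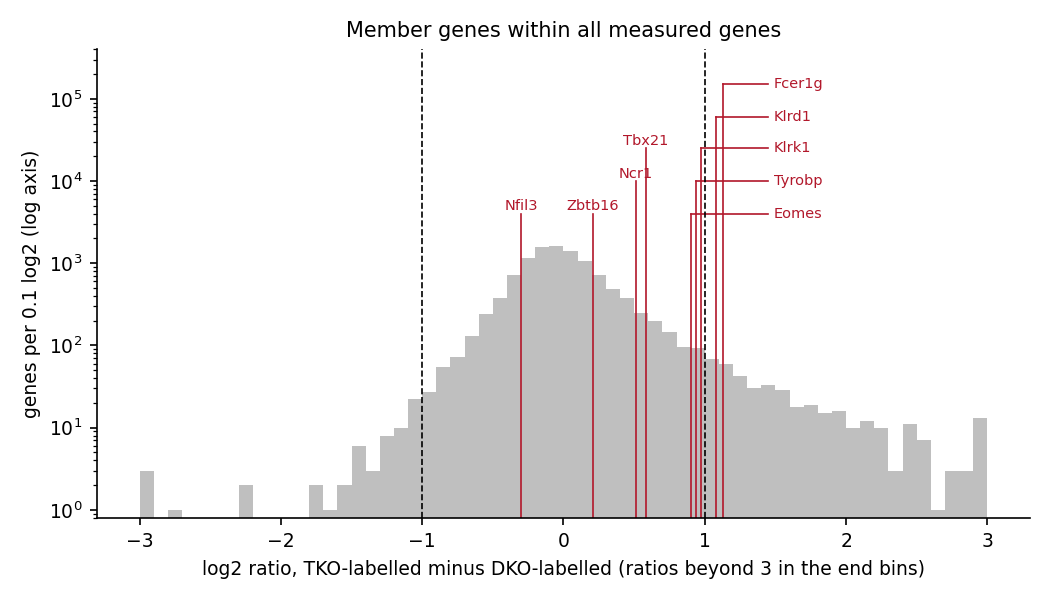
Grey bars count the 11280 measured genes per 0.1 of log2 ratio (TKO-labelled minus DKO-labelled; log axis), dashed lines mark 2-fold in each direction, and red lines mark the 9 member genes. Fcer1g and Klrd1 lie past the upper line, Klrk1, Tyrobp and Eomes just short of it, and Nfil3 (-0.30) is the member left of 0.

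The sequences upstream of these genes differed in their content of CpG dinucleotides, which is shown because vertebrate Polycomb complexes are known to occupy CpG-rich promoters of silent genes. The RefSeq promoter table (GRCm38.p6) held 7 of the 10 genes, and the 250 bases upstream of each annotated start were searched. Nfil3 held 43 CpG, a number reached by 0.712% of the 32851 promoters in the table, Tbx21 held 16 (reached by 25.4%) and Eomes 8 (reached by 43%). Fcer1g held 5 (reached by 55.6%), Klrk1 4, Klrb1c 1 and Ncr1 0 at both of its annotated starts, against a median of 6 over all promoters. The 3 factors in the promoter table thus lay above that median, and the adaptor and the receptors in it lay below. Eomes and Fcer1g were close to the median. Zbtb16, Tyrobp and Klrd1 were not in the promoter table, so the other factor, adaptor and receptor are not covered. The upstream sequences of the factor with the negative log2 ratio, the T-box factor with the larger positive one and the adaptor past 2-fold follow 5′ to 3′ on the strand of the gene, with CpG in capitals. They lie at chr13:52981040-52981289 on the minus strand (Nfil3), chr9:118477939-118478188 on the plus strand (Eomes) and chr1:171234350-171234599 on the minus strand (Fcer1g).
Nfil3: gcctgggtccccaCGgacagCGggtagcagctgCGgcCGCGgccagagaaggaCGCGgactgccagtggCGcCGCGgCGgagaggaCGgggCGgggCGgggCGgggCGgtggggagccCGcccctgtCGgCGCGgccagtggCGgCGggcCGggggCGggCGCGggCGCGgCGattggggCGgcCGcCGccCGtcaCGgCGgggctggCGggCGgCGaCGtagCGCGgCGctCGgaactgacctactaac
Eomes: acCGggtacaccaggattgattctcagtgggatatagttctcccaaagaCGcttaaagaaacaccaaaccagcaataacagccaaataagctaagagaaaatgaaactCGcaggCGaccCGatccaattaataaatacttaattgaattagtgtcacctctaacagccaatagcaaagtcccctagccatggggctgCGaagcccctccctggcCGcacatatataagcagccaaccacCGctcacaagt
Fcer1g: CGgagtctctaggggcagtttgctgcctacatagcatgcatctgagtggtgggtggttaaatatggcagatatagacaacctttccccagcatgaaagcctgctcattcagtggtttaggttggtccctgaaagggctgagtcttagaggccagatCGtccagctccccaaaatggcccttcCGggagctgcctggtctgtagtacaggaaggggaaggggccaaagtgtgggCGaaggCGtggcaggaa

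Short motifs of NK-relevant factors were also counted on both strands of the same windows. The Runx motif TGTGGT was found upstream of 3 of the 7 genes, Klrk1, Ncr1 and Klrb1c, which are the 3 receptors in the table, and in 14% of all promoters. The T-box motif GGTGTG was found in 0 of the 7 and in 16.3% of all promoters, and the Nfil3-type motif TTANGTAA in 0 of the 7 and in 2.06% of all. A match is a string of letters in this window and shows no binding. The Klrk1 and Ncr1 windows are printed with the Runx motif, on either strand, in capitals. They lie at chr6:129623865-129624114 on the minus strand and chr7:4337465-4337714 on the plus strand, and hold 1 and 2 matches.
Klrk1: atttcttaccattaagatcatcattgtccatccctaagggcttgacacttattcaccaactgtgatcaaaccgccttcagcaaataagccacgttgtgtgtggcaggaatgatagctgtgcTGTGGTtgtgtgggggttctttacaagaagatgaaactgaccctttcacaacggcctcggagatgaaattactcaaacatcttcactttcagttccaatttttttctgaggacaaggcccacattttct
Ncr1: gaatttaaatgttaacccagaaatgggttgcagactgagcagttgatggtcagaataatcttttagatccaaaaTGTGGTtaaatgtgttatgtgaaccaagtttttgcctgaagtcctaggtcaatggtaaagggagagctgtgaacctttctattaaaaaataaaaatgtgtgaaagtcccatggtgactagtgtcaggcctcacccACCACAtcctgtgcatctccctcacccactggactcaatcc

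Other NK receptor genes had higher signals as well. Klrd1, Klrk1 and Klrb1c lie in the natural killer gene complex, a cluster of lectin-like receptor genes on chromosome 6, and the list of other receptors of that family had 16 of 24 genes on the array, of which 10 were measured. Of these, 6 were at least 2-fold higher, 4 neither and 0 lower (median log2 ratio 1.05), and 6 more lay below the floor on both arrays. Among all measured genes 3.58% were at least 2-fold higher and 0.532% lower. Klrb1a had 391 on the TKO-labelled array and 127 on the DKO-labelled array, 3.08-fold higher, and Klrb1b, an inhibitory receptor, had 249 on the TKO-labelled array and 83.9 on the DKO-labelled array, 2.97-fold higher. The 3 other measured probe sets of Klrb1b ran from log2 ratios of 0.40 to 1.70. Among the Ly49 receptors Klra7 was 2.79-fold higher (702 on the TKO-labelled and 252 on the DKO-labelled array) and Klra8, which signals through Tyrobp, 2.40-fold higher (602 on the TKO-labelled and 251 on the DKO-labelled array). Both were read by probe sets of the _x_at type, which can bind close paralogs, and Klra genes are close paralogs. Klrb1f was 2.15-fold higher, with a second probe set at a log2 ratio of 0.63, and the activation marker Cd69 was 2.01-fold higher. Klrc1 (NKG2A), the inhibitory partner of Klrd1, had 1001 on the TKO-labelled array and 542 on the DKO-labelled array, a log2 ratio of 0.89. Klre1 was also at 0.89, Klra5 at 0.74 and Klrg1 at -0.10.

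The receptors were also read beside their chromosomal neighbours. Taking the genes in their order along the complex, all 10 measured Klr genes had log2 ratios above 0, between 0.74 and 1.62, and 6 of them were at least 2-fold higher. Of the 10 other measured genes in the same stretch, 2 were at least 2-fold higher, 6 had ratios above 0 and 4 below 0, with a median of 0.35. The 2 were Cd69 and Clec7a (2.24-fold), a myeloid lectin receptor chosen for mention after its value was seen. On the rest of chromosome 6, 3.64% of 549 measured genes were at least 2-fold higher, and the median log2 ratio was -0.04. The Klr probe sets are for related sequences, so their values are not independent readings.

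**Figure D3:**
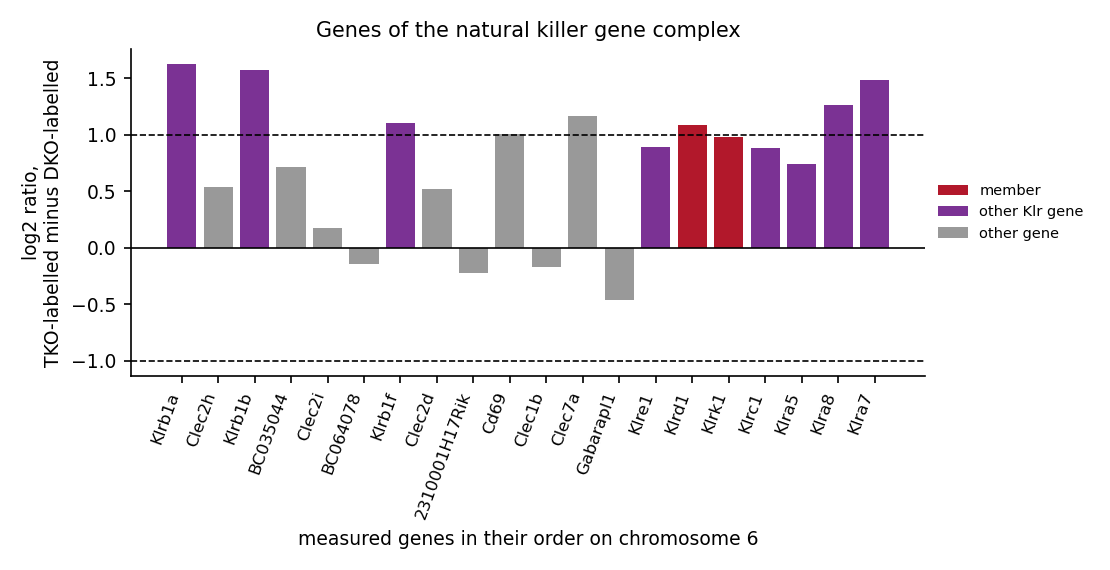
Bars give the log2 ratio (TKO-labelled minus DKO-labelled) of the 20 measured genes of the natural killer gene complex in their order on chromosome 6; members are red, other Klr genes purple and other genes grey, and dashed lines mark 2-fold. All Klr bars point up, while grey bars point both ways.

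Other transcription factors of NK and innate lymphoid cells had ratios on both sides of 0. In this list 15 genes were measured, and the median log2 ratio was 0.25. Of them, 2 (Zeb2 and Prdm1) passed 2-fold upward and 0 downward, against 3.58% and 0.532% of all measured genes. Zeb2, which acts with Tbx21 in NK maturation, had 1464 on the TKO-labelled array and 611 on the DKO-labelled array, 2.40-fold higher, and its 4 other measured probe sets ran from log2 ratios of 0.62 to 2.12. Prdm1 had 152 on the TKO-labelled array against 44.0 (under the floor) on the DKO-labelled array, at least 2.21-fold higher. Id2, the inhibitor of E proteins required for innate lymphoid cells, had 4608 on the TKO-labelled array and 2405 on the DKO-labelled array (log2 ratio 0.94), and its other probe sets gave 0.66 and 0.77. Klf2 was at 0.84, Rora at 0.49 and Irf2 at 0.42. The most negative ratio of the list was that of Tox2, at -0.34.

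Other surface and cytokine receptors of NK cells were mixed. Among 13 measured genes, 2 passed 2-fold upward and 0 downward, against 3.58% and 0.532% of all measured genes. Their median log2 ratio was 0.30. Itga1, the CD49a integrin chain of tissue-resident NK cells, was 2.99-fold higher (308 on the TKO-labelled and 103 on the DKO-labelled array), with a second probe set at a log2 ratio of 0.77. Il18r1 was 2.04-fold higher (840 on the TKO-labelled and 411 on the DKO-labelled array), and its partner chain Il18rap was at 0.89 by one probe set and 0.11 by another. Il2rb, the receptor chain for interleukin 15, was at 0.75, as was Cd244a, and Fcgr3, an Fc receptor that signals through Fcer1g, at 0.80. Itga2 (CD49b), a defining marker of mature mouse NK cells, lay below the floor on both arrays, as did S1pr5, Cd226 and Il12rb2.

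Downstream of the receptors, the kinase Syk was higher and its relative Zap70 was not. The 16 measured adaptors and kinases had a median log2 ratio of 0.10. Of them, 2 passed 2-fold upward and 0 downward, against 3.58% and 0.532% of all measured genes. Syk, which binds the phosphorylated motifs of Fcer1g and Tyrobp and is also the B-cell receptor kinase, had 1877 on the TKO-labelled array and 659 on the DKO-labelled array, 2.85-fold higher, with other probe sets from -0.10 to 1.40 in log2 ratio. Lat2, an adaptor of B, NK and mast cells, was 2.33-fold higher, but a second probe set was at -0.02. Zap70, the related kinase of T and NK cells, was at -0.12, and Hcst (DAP10), the other adaptor of Klrk1, at 0.25 (690 on the TKO-labelled and 582 on the DKO-labelled array). Over the list 9 genes had ratios above 0 and 7 below 0. Inpp5d, the inhibitory lipid phosphatase SHIP1, was at 0.75, Ptpn6, the phosphatase SHP-1, at 0.64, the phospholipase Plcg2 at 0.53 and the exchange factor Vav1 at 0.53. The most negative were Sh2d1a at -0.52, the adaptor Lat at -0.49 and Cd247, a further signalling chain of Ncr1, at -0.48.

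Receptors that pair with Fcer1g or Tyrobp, 20 genes that include the members Klrk1 and Ncr1 and the Klra8 and Fcgr3 values already given, were largely unmeasured. Of 19 on the array 8 were measured, with a median log2 ratio of 0.66. Of the 8, 2 passed 2-fold upward (Klra8 and Clec4n) and 0 downward, against 3.58% and 0.532% of all measured genes. Clec4n (Dectin-2), a myeloid receptor that signals through Fcer1g, had 163 on the TKO-labelled array and 77.4 on the DKO-labelled array, 2.11-fold higher, with a second probe set at 0.53. The myeloid partners Trem1, Trem2, Trem3, Clec5a, Oscar, Siglech and Sirpb1a and the mast cell partner Fcer1a were below the floor on both arrays. Of the ligands of these receptors and the cytokine Il15, 3 of 11 genes were on the array as single-gene probe sets and 1 was measured, Il15, at a log2 ratio of 0.22.

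Cytotoxic effector genes had ratios on both sides of 0, but mostly above it. All 15 were measured, 12 with ratios above 0 and 3 below, against 46.5% above 0 among all measured genes. The median log2 ratio was 0.41. Of the 15, 3 passed 2-fold upward and 1 downward, against 3.58% and 0.532% of all measured genes. Gzmc, a granzyme of activated killer cells, had 388 on the TKO-labelled array against 36.7 (under the floor) on the DKO-labelled array, at least 5.64-fold higher. The chemokine Xcl1 was 2.33-fold higher (901 on the TKO-labelled and 386 on the DKO-labelled array), and Ifng, near the floor, at least 2.08-fold higher. Gzmm had 65.4 (under the floor) on the TKO-labelled array and 149 on the DKO-labelled array, at least 2.07-fold lower. Gzma, the granzyme of resting NK cells, had 18012 on the TKO-labelled array and 21801 on the DKO-labelled array, a log2 ratio of -0.28, and Prf1, which encodes perforin, was at 0.63 and Ctsw at 0.98. The chemokine Ccl3, under the floor on the DKO-labelled array, was at 0.73 at least, and the granzyme B inhibitor Serpinb9 at 0.53.

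The calls outside the members depended on the floor, the scaling and the choice of probe set. Over all related lists, including the 2-fold call of Egr2 among invariant NKT genes, 85 genes that are no member were measured. Of these, 17 were at least 2-fold higher and 1 was lower, against 3.58% and 0.532% of all measured genes. With each array's 75th percentile as the floor, Zeb2, Il18r1, Syk and Xcl1 remained, 9 of the 17 were no longer measured, and Klra7, Klra8, Cd69 and Egr2 fell short of 2-fold. When all probe sets of a gene were averaged, 11 of the 17 remained, and Klra7, Klrb1b, Klrb1f, Clec4n, Lat2 and Syk did not. Under quantile normalization Il18r1, Cd69 and Ifng lost the call (log2 ratios between 0.954 and 0.999). With _x_at and _s_at probe sets left out, Clec4n was at 0.53 and Klra7 and Klra8 were not measured.

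**Figure D4:**
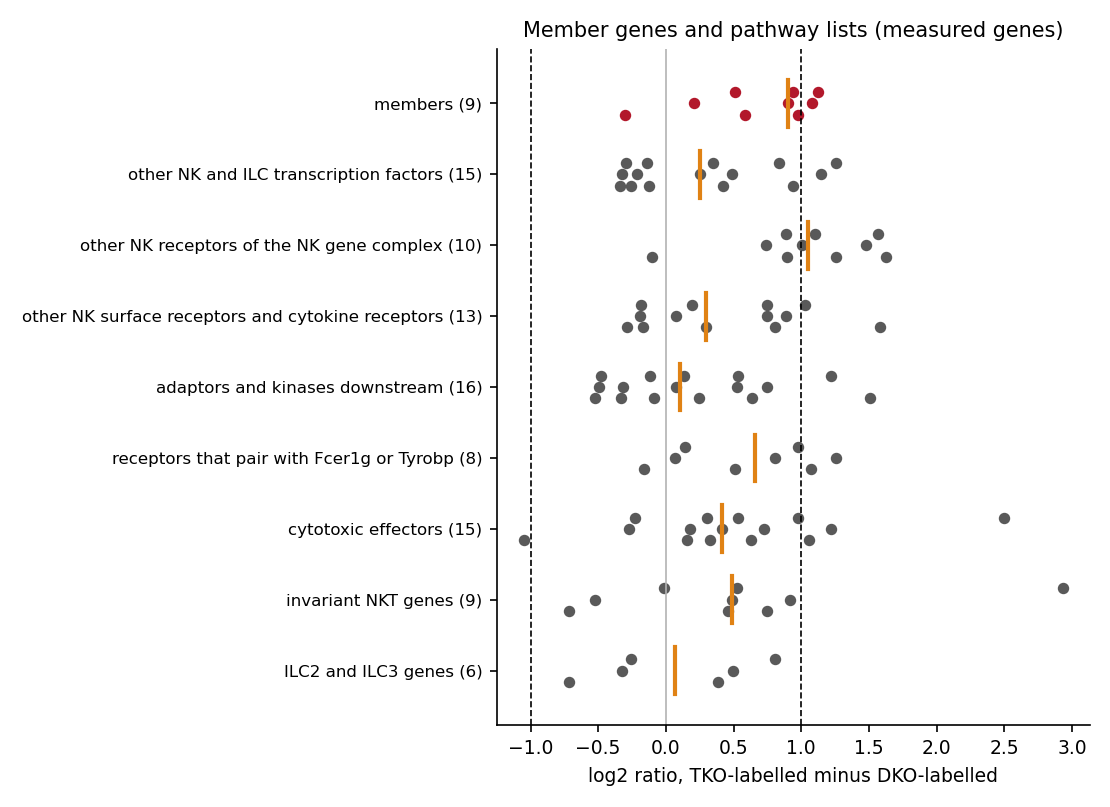
Each point is the log2 ratio (TKO-labelled minus DKO-labelled) of 1 measured gene, in rows for the 9 members and 8 related lists, with the number measured in brackets, an orange bar at the median and dashed lines at 2-fold. The members' median (0.90) and that of the other receptors of the NK gene complex (1.05) lie near the upper line, and those of the other lists between 0.06 and 0.66.

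Markers of other cells that use some of these genes differed between the arrays too, and their part in the result was not tested. For each marker list below, the shares over all measured genes were 3.58% at least 2-fold higher and 0.532% lower. Fcer1g and Tyrobp are also expressed in myeloid and mast cells. Of 10 macrophage and monocyte markers on the array 7 were measured, 3 at least 2-fold higher (Lyz2, Mpeg1 and Csf1r, between 2.49-fold and 3.23-fold), 0 lower and 4 neither. Their summed signal was 5581 on the TKO-labelled and 3032 on the DKO-labelled array, and the defining markers Cd14, Itgam and Cebpa were below the floor on both. Of 10 neutrophil markers 9 were measured, 0 higher and 2 lower (Ngp and S100a9), with summed signals of 1933 on the TKO-labelled and 3373 on the DKO-labelled array. Of 9 mast cell and basophil markers 4 were measured, 0 higher and 1 lower (Cma1), with sums of 1172 on the TKO-labelled and 2130 on the DKO-labelled array. The high-affinity IgE receptor chains Fcer1a and Ms4a2, and also Mcpt8, Mcpt1 and Tpsb2, were below the floor on both arrays. Of 7 dendritic cell markers 5 were measured and 0 passed 2-fold either way, with sums of 3359 on the TKO-labelled and 3538 on the DKO-labelled array and Siglech and Xcr1 below the floor on both.

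By the probe set used for each gene, all 7 B-cell markers on the array were at least 2-fold higher, from Cd79a (2.33-fold) to Ms4a1 (6.80-fold), and their sum was 21366 on the TKO-labelled and 5744 on the DKO-labelled array. A second Pax5 probe set was at a log2 ratio of 0.24, against 2.01 for the one used. All 9 markers of the early T lineage on the array were measured, and all had negative ratios, of which Il2ra was 2-fold lower (3162 on the TKO-labelled and 6536 on the DKO-labelled array). Their sum was 63685 on the TKO-labelled and 96388 on the DKO-labelled array. Of 4 measured gamma-delta T-cell markers 1 was higher, Blk (2.27-fold), which B cells express as well, and Il17a was below the floor on both arrays, with sums of 3738 on the TKO-labelled and 2977 on the DKO-labelled array. Of 9 NK-cell markers on the array 8 were measured, Klrd1 alone was 2-fold higher and Itga2 was not measured. This list shares Klrd1, Klrk1, Ncr1, Eomes and Tbx21 with the members, so it is no separate reading of them. Its other measured markers were Il2rb, Prf1 and Gzma, at log2 ratios of 0.75, 0.63 and -0.28. Of the 8, 7 had ratios above 0, and the median log2 ratio was 0.69. Their summed signal, which is mostly Gzma, was 22441 on the TKO-labelled and 24217 on the DKO-labelled array.

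**Figure D5:**
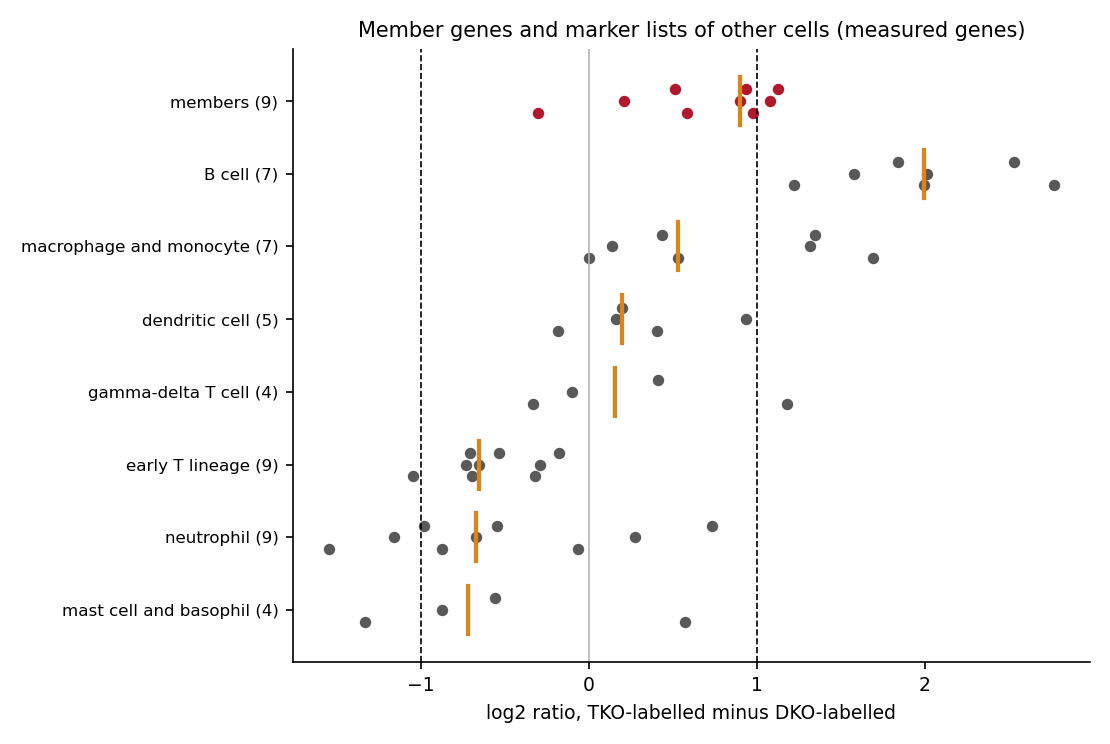
Rows give the log2 ratio (TKO-labelled minus DKO-labelled) of each measured member gene and of each measured marker of 7 other cell types, with an orange bar at the median and dashed lines at 2-fold. All 7 B-cell markers lie right of the upper line, macrophage and monocyte markers reach up to 1.69, and all 9 early T-lineage markers lie left of 0.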

How the data were processed

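Gene expression was measured in 2 one-colour Affymetrix arrays of thymocyte RNA, grouped by title (TKO and DKO). The deposited values are linear intensity values per probe set, and per the submitters' processing notes the authors used MAS5, with no version or settings given. MAS5 subtracts background and scales each array. Of 45037 probe sets, 34945 carried 1 platform gene, 932 several and 9160 none. Those listed with several genes were left out. Entrez IDs gave current symbols for 99.4% from RefSeq (GRCm38.p6). For each gene the probe set with the larger average log2 signal over both arrays was used. Signals under each array's median were raised to it, genes below it on both arrays have no ratio, and a gene below it on 1 array has a bound ("at least"). Calculations used Python 3.11.15, numpy 2.4.6, pandas 2.3.3, scipy 1.17.1, statsmodels 0.14.6 and matplotlib 3.10.9, and the size rule was checked on simulated data. Because each label has 1 array, that check cannot show the spread between animals or cultures, nor how often a call would repeat. The number of arrays limits the precision. Named genes were the members, the targeted genes, and of each list those past 2-fold and up to 4 others with the largest ratios; the sex-linked genes, and others named as unmeasured, as neighbours or for their role, fall outside that rule and were picked after values were seen. Members and lists were chosen with earlier results of these data known. Alternatives were other floors, scalings, probe set rules and a 1.5-fold rule.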

Additional observations from a re-analysis of the deposited data

How the results depend on the processing

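At 2-fold, the count of member genes changed little with the floor, the scaling and the probe set rule. Under the 9 alternatives the number of member genes at least 2-fold higher was 2 or 3, and 5 with a 1.5-fold rule, and 0 were lower in each. Fcer1g (log2 ratios 1.09 to 1.16) and Klrd1 (1.06 to 1.12) passed 2-fold under all 8 settings of floor, scaling and probe set. Each has 1 probe set with signals above every floor tried. The floor and probe set settings therefore could not change these 2 values, and only the scalings moved them. Klrk1 (0.59 to 1.01) passed in 1 of 8, and Tyrobp (0.92 to 0.97) in 0 of 8, and Eomes (0.70 to 0.94) in 0 of the 7 that measured it. With the floor at the 75th percentile 4 members were still measured (Fcer1g, Tyrobp, Klrd1 and Klrk1), since it removes dim genes. The number of member probe sets at least 2-fold higher was 4 with no floor, against 2, the added ones being the Zbtb16 probe sets below the floor, and 5 with the 1.5-fold rule. Counts over all genes, 404 higher and 60 lower, were 962 and 434 with the floor at the 25th percentile, 147 and 14 at the 75th, 2197 and 1497 with no floor, and 977 and 369 at 1.5-fold. Averaging the probe sets of each gene gave 35 lower. For the pathway genes that are no member (17 higher and 1 lower), alternatives chosen after seeing the data gave 4 and 0 at the 75th percentile, 26 and 6 with no floor, 34 and 2 at 1.5-fold, 5 lower at the 25th percentile and 11 higher after averaging probe sets. No alternative moved the median log2 ratio of all genes by over 0.1. No paired analysis was possible because each label has 1 array. Dim genes such as Zbtb16 are limited by signal over background.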

Other observations

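Lists for invariant NKT cells and for the other innate lymphoid cells were read beside the members, since Zbtb16 is also the factor of invariant NKT cells and of innate lymphoid precursors. Of 9 measured invariant NKT genes 1 was at least 2-fold higher, Egr2, an early growth response factor, with 526 on the TKO-labelled array against 58.8 (under the floor) on the DKO-labelled array, at least 7.64-fold higher. Icos was at a log2 ratio of 0.92, Cxcr6 at 0.75 and Cd1d1, the molecule that presents lipids to these cells, at 0.46. Il17rb was at -0.72, with 936 on the TKO-labelled array and 1537 on the DKO-labelled array. Il4 was below the floor on both arrays. Of 6 measured genes of type 2 and type 3 innate lymphoid cells 0 were 2-fold higher or lower, with a median log2 ratio of 0.06, and the most positive was Ccr6 at 0.81. Among all measured genes 3.58% were at least 2-fold higher and 0.532% lower. Across these lists, values below the floor and lists of few measured genes leave little to compare.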
